A study of Mus musculus with 12 samples.

Results

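The 10 genes described here encode subunits and close partners of the protein complexes that start autophagosome formation: Ulk1, Ulk2, Atg13 and Rb1cc1 of the ULK kinase complex, Pik3c3, Pik3r4, Becn1, Atg14 and Uvrag of the class III PI3K complexes, and Ambra1, which links the complexes. They were picked by gene name, and 10 of the 24062 genes in the count table are members. All 10 of 10 passed the filter on low counts and are among the 12154 genes tested. RNA-Seq counts came from mouse embryonic fibroblasts (MEFs) that stably express an shRNA, either the control shRenilla, directed against Renilla luciferase, or shBruce, directed against Birc6, the gene for the giant ubiquitin ligase BRUCE. Each line was kept in full medium (FM) or was starved (Starv) in medium that lacked serum and amino acids for 2 h, and each of the 4 conditions has 3 replicate libraries, 12 in all. One retrovirally infected line stands for each shRNA, so the knockdown and any other difference between the lines cannot be told apart. The labels do not say that replicates came from separate cultures, so p-values measure the spread between these libraries, which may be technical.

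Autophagy delivers cytoplasm to the lysosome inside a double-membraned vesicle, the autophagosome. When amino acids are withdrawn, the kinase mTORC1 no longer holds the ULK complex in check, and ULK kinases phosphorylate Beclin 1 (encoded by Becn1), ATG14 and other partners at the site where the vesicle will grow. There the class III PI3K, with VPS34 (Pik3c3) as its catalytic subunit and VPS15 (Pik3r4) as its regulatory subunit, makes the lipid PI3P, which recruits the proteins that expand the membrane. Beclin 1 joins VPS34 and VPS15 either with ATG14, which places the enzyme at sites of autophagosome formation, or with UVRAG, which places it on endosomes. Much of this control acts on proteins, through phosphorylation and ubiquitination, and none of it is seen in the transcript counts reported here.

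Total counts were between 7717265 and 18510540 per library, and the lowest total belonged to shBruce Starv replicate 1. Birc6, the target of shBruce, had normalized counts of 3273 to 5061 in shRenilla FM and of 1207 to 1390 in shBruce FM. In Starv its counts were 2787 to 4759 in shRenilla and 703 to 1226 in shBruce MEFs, so the lines did not overlap in either medium. Its log2 difference was -1.75 in FM (edgeR, adjusted p = 0.0627) and -1.98 in Starv (edgeR, adjusted p = 0.0186). The 9 fibroblast markers summed to between 10358 and 15188 CPM (counts scaled to the library total) in each library. Of these markers, 8 passed the filter on low counts, and 1 had 0 counts in all shBruce FM libraries. By contrast, 4 epithelial, 3 endothelial and 2 pluripotency markers summed to at most 4.47 CPM per list. The 2 haematopoietic markers in the table summed to between 4.92 and 9.42 CPM.

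In shRenilla MEFs, 6 of 10 were higher in Starv and 0 were lower in the edgeR quasi-likelihood test at an adjusted p of 0.05 (Ulk1, Ulk2, Atg13, Pik3c3, Pik3r4 and Atg14). Over all genes tested, 17% were called in this comparison, 9.69% higher and 7.27% lower. In shBruce MEFs, 4 of 10 were higher and 0 were lower (Ulk1, Atg13, Rb1cc1 and Atg14), beside 23% of all genes called, 12.4% higher and 10.6% lower. Atg14 had the largest change of the 10 in both lines, 3.15-fold in shRenilla and 3.22-fold in shBruce MEFs, and Atg13 the next largest. Becn1 and Ambra1 were called in neither line. The median log2 fold change of the 10 genes was 0.54 in shRenilla and 0.38 in shBruce MEFs, whereas the median over all genes was -0.0051 and 0.021. Counts are relative to the other RNA of the same library, and in bulk cultures fewer cells of a type and less RNA per cell cannot be told apart.

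**Figure D1:**
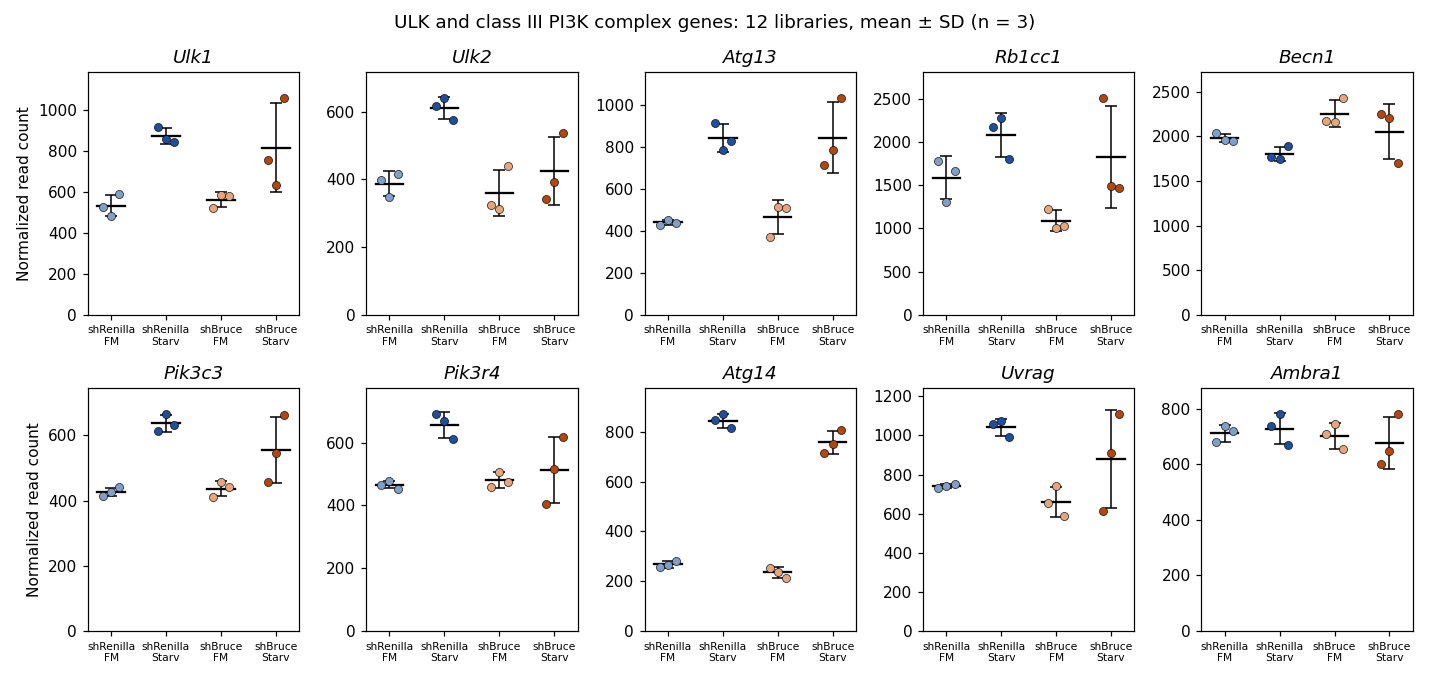
Normalized read counts of the 10 genes (vertical axes, each from 0) in the 12 libraries, grouped by line and medium on the horizontal axis. Points are libraries, horizontal bars are means and error bars are SDs (n = 3). The Starv points of Atg14 and Atg13 lie above all FM points in both lines, those of Becn1 and Ambra1 do not, and shBruce Starv shows the widest scatter.

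The start-site regions of the 3 genes called in both lines, Ulk1, Atg13 and Atg14, are shown because their transcripts rose together. RefSeq promoters were found for 7 of the 10 genes, and none was matched for Rb1cc1, Becn1 and Pik3c3. Each sequence runs 5′ to 3′ on the gene's own strand, from 250 bases before the RefSeq start to 30 bases from it, in GRCm38.p6. All 3 lie on the minus strand, Ulk1 at chr5:110810052-110810331, Atg13 at chr2:91710563-91710842 and Atg14 at chr14:47568405-47568684. Capitals mark an E-box core. The RefSeq starts of Ulk1 and Atg13 lie within 16 bases of the outer end of the gene in the GENCODE annotation, whereas that of Atg14 lies 2215 bases inside it, so the annotations place the start of Atg14 differently.
Ulk1: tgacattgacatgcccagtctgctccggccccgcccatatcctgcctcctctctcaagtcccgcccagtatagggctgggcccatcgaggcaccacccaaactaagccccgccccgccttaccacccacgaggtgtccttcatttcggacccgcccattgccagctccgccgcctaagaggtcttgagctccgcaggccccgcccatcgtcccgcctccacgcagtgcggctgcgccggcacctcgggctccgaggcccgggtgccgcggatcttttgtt
Atg13: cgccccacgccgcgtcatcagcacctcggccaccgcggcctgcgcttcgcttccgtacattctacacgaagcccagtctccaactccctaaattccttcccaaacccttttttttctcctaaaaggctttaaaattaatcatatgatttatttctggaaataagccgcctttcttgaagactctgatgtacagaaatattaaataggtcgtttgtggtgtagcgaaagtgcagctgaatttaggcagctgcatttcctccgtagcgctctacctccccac
Atg14: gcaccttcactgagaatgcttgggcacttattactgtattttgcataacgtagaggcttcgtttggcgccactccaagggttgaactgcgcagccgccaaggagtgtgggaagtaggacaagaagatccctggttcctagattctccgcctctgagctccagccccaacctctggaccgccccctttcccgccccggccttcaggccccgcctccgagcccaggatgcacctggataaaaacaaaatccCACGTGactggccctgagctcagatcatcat
The E-box core CACGTG, which reads the same on both strands and is bound by basic helix-loop-helix factors such as TFEB and MYC, was present in the Atg14 sequence alone among the 7 matched genes. It began 1 base before the RefSeq start. Of 32851 promoters of 300 bases in the same table, 7.15% hold these letters on either strand. The FOXO core GTAAACA (3.65% of all promoters), the ATF4-C/EBP element TGATGCAA (0.895%) and the cyclic AMP response element TGACGTCA (1.79%) had no match in any of the 7, which says only that these letters are not in these windows. None of the 4 motifs contains another. By base composition the 300-base start-site windows of the 3 genes differed, with 68% GC and 26 CpG dinucleotides for Ulk1, 49% and 18 for Atg13, and 57.7% and 13 for Atg14. The median over all promoters was 52.7% GC and 7 CpG.

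Among the ULK complex genes, Ulk1 (chr5:110784488-110810097, minus strand) and Ulk2 (chr11:61775649-61855073, minus strand) encode the related protein kinases of the complex. Ulk1 had normalized counts of 524, 484 and 588 in shRenilla FM and of 917, 858 and 841 in shRenilla Starv. In shBruce MEFs it had 519, 585 and 578 in FM and 753, 634 and 1057 in Starv. Every Starv library of a line was above every FM library of that line. Its log2 fold change was 0.71 (SE 0.17, edgeR adjusted p = 0.01) in shRenilla and 0.54 (SE 0.17, edgeR adjusted p = 0.0324) in shBruce MEFs. The shBruce call was the less stable, since it was lost when any of 6 libraries was left out (shRenilla FM 1, shRenilla Starv 2, shBruce FM 1, 2 or 3, or shBruce Starv 3, adjusted p 0.0510 to 0.115). Without shBruce Starv 3, which carried the highest value, the log2 fold change was 0.30. In shRenilla MEFs, leaving out shRenilla FM 2 alone ended the call (edgeR adjusted p = 0.0530).

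Ulk2 had counts of 399, 347 and 417 in shRenilla FM and of 618, 641 and 575 in shRenilla Starv, with no overlap between the media. In shBruce MEFs the values were 326, 314 and 439 in FM and 343, 394 and 538 in Starv, and these overlapped. The gene was called in shRenilla MEFs (log2 fold change 0.66, SE 0.18, edgeR adjusted p = 0.0211) and not in shBruce MEFs (0.25, SE 0.18, edgeR adjusted p = 0.337). The difference between these responses, tested as the interaction of line and medium, was -0.41 (95% CI -0.95 to 0.13, edgeR adjusted p = 0.806) and is not shown. Leaving out any of 5 libraries, shRenilla FM 1, 2 or 3 or shRenilla Starv 1 or 2, ended the shRenilla call (adjusted p 0.0518 to 0.102).

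Atg13 (chr2:91674618-91710576, minus strand) encodes the adaptor that holds the kinase to the rest of the complex and is a main substrate of mTORC1 and ULK1. Its counts were 427, 455 and 440 in shRenilla FM and 917, 788 and 828 in shRenilla Starv. In shBruce MEFs they were 373, 515 and 510 in FM and 717, 784 and 1035 in Starv. The media were fully separated in both lines, with the lowest Starv library well above the highest FM library. The log2 fold change was 0.94 (SE 0.16, edgeR adjusted p = 0.00153) in shRenilla and 0.86 (SE 0.16, edgeR adjusted p = 0.00217) in shBruce MEFs, which placed Atg13 at rank 681 and 1098 of the 12154 genes by fold change. It was called in both lines under all 19 alternatives, with log2 fold changes of 0.87 to 0.98 and of 0.69 to 0.95. Ambra1 starts 19.6 kb away on the opposite strand, and its different values are given below.

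Rb1cc1 (chr1:6206197-6276648, plus strand) encodes FIP200, the large scaffold of the ULK complex, and has the longest transcript of the 10 genes (7607 nt, 39.1% GC). Its counts were 1783, 1309 and 1670 in shRenilla FM and 2171, 2274 and 1798 in shRenilla Starv. In shBruce MEFs they were 1228, 1005 and 1029 in FM and 2511, 1494 and 1471 in Starv. Starv libraries were above FM libraries in both lines, narrowly in shRenilla MEFs, and shBruce Starv 1, the library with the lowest total, stood far above the other two of its condition. The log2 fold change was 0.39 (SE 0.20, edgeR adjusted p = 0.200) in shRenilla and 0.74 (SE 0.20, edgeR adjusted p = 0.0178) in shBruce MEFs. Without shBruce Starv 1 the values were 0.40 (edgeR adjusted p = 0.0417) and 0.43 (edgeR adjusted p = 0.0522), so the call changed in each line. It changed likewise when each line was fitted on its own 6 libraries (edgeR adjusted p = 0.0259 in shRenilla and 0.0771 in shBruce MEFs). The shBruce call was also lost without shBruce FM 2 or 3 (edgeR adjusted p = 0.0709 and 0.0535). When the dependence of each library's counts on length and GC of the transcript was taken out (below, the length and GC trend), the log2 fold change was 0.14 in shRenilla and 0.71 in shBruce MEFs.

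Of the class III PI3K genes, Pik3c3 (chromosome 18) and Pik3r4 (chr9:105642978-105687657, plus strand) encode the catalytic and the regulatory subunit shared by both PI3K complexes. Pik3c3 had counts of 414, 425 and 440 in shRenilla FM and of 614, 665 and 630 in shRenilla Starv. In shBruce MEFs it had 411, 457 and 441 in FM and 458, 546 and 661 in Starv. The media were far apart in shRenilla and met within 1 count in shBruce MEFs. The log2 fold change was 0.58 (SE 0.13, edgeR adjusted p = 0.00965) in shRenilla and 0.35 (SE 0.13, edgeR adjusted p = 0.0759) in shBruce MEFs. Without shRenilla Starv 2 the first was 0.54 (edgeR adjusted p = 0.0505), and without shBruce Starv 1 the second was 0.45 and passed the test (edgeR adjusted p = 0.0135), as it did at 0.34 with the length and GC trend removed (edgeR adjusted p = 0.0163).

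Pik3r4 had 466, 476 and 453 in shRenilla FM and 690, 668 and 611 in shRenilla Starv. In shBruce MEFs its counts were 460, 508 and 474 in FM and 406, 516 and 617 in Starv. The shRenilla groups were separate, while the shBruce Starv libraries lay on both sides of the FM libraries. The log2 fold change was 0.50 (SE 0.14, edgeR adjusted p = 0.0283) in shRenilla and 0.10 (SE 0.14, edgeR adjusted p = 0.640) in shBruce MEFs. The interaction of -0.40 (95% CI -0.83 to 0.036, edgeR adjusted p = 0.806) did not pass the test. The shRenilla call was lost without any of the 5 libraries shRenilla FM 1, 2 or 3 or shRenilla Starv 1 or 2 (adjusted p 0.0851 to 0.112).

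Atg14 (chr14:47540893-47570649, minus strand) encodes the subunit that directs the PI3K to sites of autophagosome formation, and its sequence above, at the RefSeq start, is the one with the E-box. Its counts were 255, 267 and 282 in shRenilla FM and 847, 871 and 814 in shRenilla Starv. In shBruce MEFs they were 255, 237 and 214 in FM and 717, 749 and 805 in Starv. No other gene of the 10 had so wide a gap between the media, and its replicates were close to each other in each condition, shBruce Starv included. Log2 fold changes were 1.65 (95% CI 1.41 to 1.90, edgeR adjusted p = 1.62e-06) in shRenilla and 1.69 (95% CI 1.44 to 1.94, edgeR adjusted p = 9.97e-07) in shBruce MEFs. By fold change Atg14 was at rank 146 and 227 of 12154 genes. Under all 19 alternatives it was called in both lines, at 1.59 to 1.69 and at 1.62 to 1.74.

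Uvrag (chr7:98885021-99141141, minus strand) encodes the subunit that takes the place of ATG14 in the endosomal complex. It had counts of 732, 743 and 754 in shRenilla FM and of 1057, 1076 and 990 in shRenilla Starv. In shBruce MEFs it had 655, 741 and 589 in FM and 614, 912 and 1109 in Starv. All shRenilla Starv libraries were above the FM libraries, and the gene missed the threshold in the joint fit, which shares the spread of all 12 libraries (log2 fold change 0.49, SE 0.17, edgeR adjusted p = 0.0709). In a fit of the 6 shRenilla libraries alone it was called (edgeR adjusted p = 0.000503). The shBruce value was 0.41 (SE 0.17, edgeR adjusted p = 0.105) with overlapping groups, the lowest Starv value being shBruce Starv 1. Without that library Uvrag passed the test in both lines, at 0.50 (edgeR adjusted p = 0.00596) and 0.60 (edgeR adjusted p = 0.00406), and without shBruce Starv 3 in shRenilla MEFs (edgeR adjusted p = 0.0215). With the length and GC trend removed it passed in shBruce MEFs (0.43, edgeR adjusted p = 0.0459).

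Becn1 (chr11:101285952-101302286, minus strand) encodes Beclin 1, the subunit common to the ATG14 and UVRAG complexes and the point at which BCL2 proteins bind. Its counts were 2035, 1962 and 1947 in shRenilla FM and 1768, 1748 and 1888 in shRenilla Starv. In shBruce MEFs they were 2172, 2156 and 2430 in FM and 2249, 2206 and 1702 in Starv. The shRenilla Starv libraries were all slightly below the FM libraries, and the shBruce groups overlapped. Its log2 fold change was -0.14 in each line (edgeR adjusted p = 0.465 and 0.442), with 95% CIs of -0.40 to 0.12 and of -0.39 to 0.12. A rise of the size seen for Ulk1 or Atg13 is therefore outside both intervals. The annotation places exons of Cntd1 on the opposite strand over 43.9% of the exonic bases of Becn1, and the strand setting of the counting is not given in the sources used here. Cntd1 itself had 2 to 37 counts per library. Smaller overlaps on the opposite strand, over 3.80% to 17.6% of exonic bases, were annotated for Rb1cc1, Atg14 and Uvrag.

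Ambra1 (chr2:91730134-91918849, plus strand) encodes a scaffold that binds Beclin 1 and brings ubiquitin ligases to ULK1. It had counts of 678, 738 and 719 in shRenilla FM and of 737, 780 and 667 in shRenilla Starv. In shBruce MEFs it had 707, 743 and 654 in FM and 602, 647 and 779 in Starv. All 4 groups overlapped. The log2 fold change was 0.033 (95% CI -0.24 to 0.30, edgeR adjusted p = 0.884) in shRenilla and -0.050 (95% CI -0.32 to 0.22, edgeR adjusted p = 0.803) in shBruce MEFs.

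**Figure D2:**
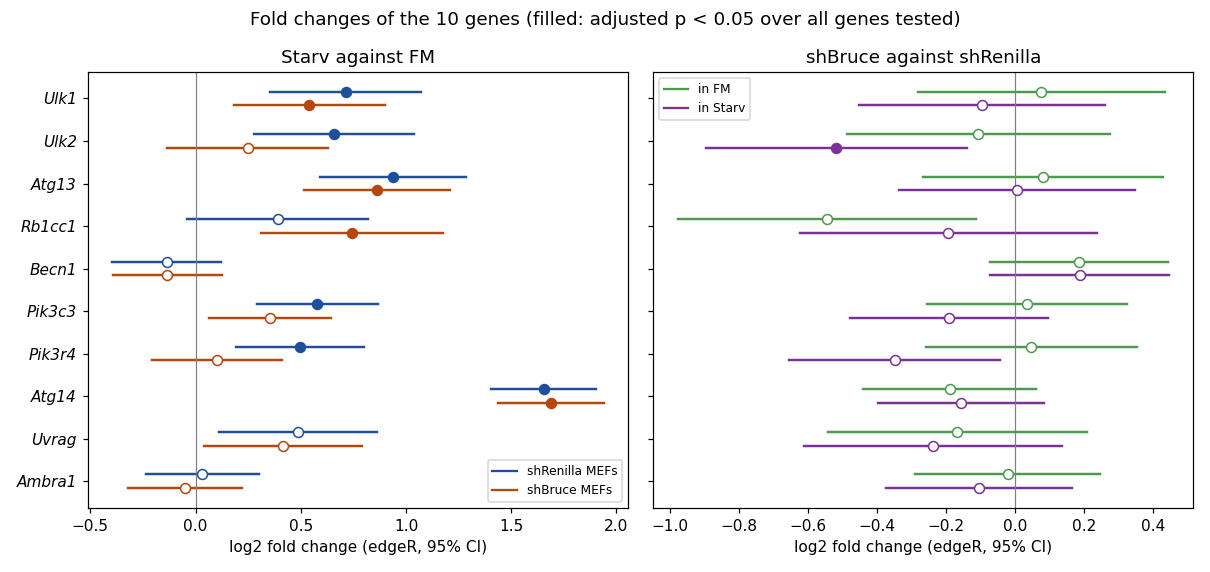
Log2 fold changes of the 10 genes with 95% confidence intervals from the joint edgeR fit (horizontal axes), for Starv against FM in each line (left) and for shBruce against shRenilla in each medium (right). Filled points passed the test over all 12154 genes. On the left, 6 shRenilla and 4 shBruce points are filled, and on the right only Ulk2 in Starv.

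By library alone, 8 of the 10 genes had shRenilla Starv counts wholly above FM counts and 1, Becn1, wholly below. Such separation, in either direction, was found for 52.4% of all genes in that comparison. In shBruce MEFs 5 genes were separated, all higher in Starv (Ulk1, Atg13, Rb1cc1, Pik3c3 and Atg14), beside 30.9% of all genes. For each separated gene the exact permutation test gave p = 0.1, two-sided, the smallest that 3 libraries against 3 allow. The spread of the replicates was not the same in the 4 conditions. The coefficient of variation of the 10 genes had a median of 3.72% in shRenilla FM, 5.04% in shRenilla Starv, 7.74% in shBruce FM and 20.2% in shBruce Starv. In the last condition replicate 3 held the highest value of 8 of the 10 genes and replicate 1 the lowest of 7. When each comparison was fitted on its own 6 libraries, 8 of the 10 genes were called in shRenilla MEFs (those above and Rb1cc1 and Uvrag) and 2 in shBruce MEFs (Atg13 and Atg14), and the share of all genes called moved to 41.9% and 8.11%.

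Levels can be compared between genes only per transcript length, here as normalized counts per kb of the transcript chosen for each gene. In shRenilla FM, Becn1 was highest at 454 ± 10.7 (SD, n = 3) per kb and Rb1cc1 next at 209 ± 32.5. Below them came Uvrag (144 ± 2.08), Ambra1 (137 ± 5.89), Pik3c3 (131 ± 4.03), Atg13 (122 ± 3.84), Ulk1 (102 ± 10.1), Pik3r4 (97.8 ± 2.4), Atg14 (71.9 ± 3.61) and Ulk2 (67.5 ± 6.31). In this order the neighbours Uvrag and Ambra1, Ambra1 and Pik3c3, Ulk1 and Pik3r4, and Atg14 and Ulk2 had overlapping ranges of mean ± SD. In shRenilla Starv, Becn1 (413 ± 17.3 per kb) and Rb1cc1 (274 ± 32.9) were again highest, followed by Atg13 (234 ± 18.4) and Atg14 (226 ± 7.64), the latter next to last in FM. Uvrag was then at 202 ± 8.74, Pik3c3 at 195 ± 7.87, Ulk1 at 167 ± 7.66, Ambra1 at 140 ± 10.9, Pik3r4 at 138 ± 8.58 and Ulk2 at 106 ± 5.86 per kb. Here the ranges of Rb1cc1 and Atg13, Atg13 and Atg14, Uvrag and Pik3c3, and Ambra1 and Pik3r4 overlapped. The per-kb level of Becn1 rests on a transcript of 4365 nt and would be higher with a shorter one.

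In FM, none of the 10 genes differed between the lines beyond the threshold. No member was called in the edgeR test, with 0% of all genes called and 1750 genes at an unadjusted p under 0.05. DESeq2 called 71 genes and limma-voom 0, and 0 of the 10 genes were called by either. Rb1cc1 alone among the 10 was below 0.05 before adjustment. Its log2 difference was -0.55 (SE 0.20, edgeR adjusted p = 0.303). Its shBruce FM counts of 1228, 1005 and 1029 were all below the shRenilla FM counts of 1783, 1309 and 1670. Fitted on the 6 FM libraries alone it was called (edgeR adjusted p = 0.0485), and with the length and GC trend removed the difference was -0.12. Separation of the libraries by line was seen for 3 of the 10 genes, Rb1cc1 and Atg14 lower and Becn1 higher in shBruce, beside 33.4% of all genes. The differences of Atg14 and Becn1 were -0.19 and 0.18. Over the 19 alternatives they ranged from -0.25 to -0.10 for Atg14 and from 0.13 to 0.40 for Becn1, with 0 calls for either. The other 7 genes had log2 differences between -0.17 (Uvrag) and 0.081 (Atg13).

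In Starv, 1 of the 10 genes was called, Ulk2, which was lower in shBruce MEFs, beside 23.9% of all genes called and 11.2% called lower. Its counts of 343, 394 and 538 in shBruce were all below the 618, 641 and 575 of shRenilla MEFs. The log2 difference of -0.52 (SE 0.18, edgeR adjusted p = 0.0487) was close to the threshold. It was lost when any of 10 of the 12 libraries was left out, all but shBruce FM 3 and shBruce Starv 3 (adjusted p 0.0572 to 0.157, log2 difference -0.56 to -0.41). It was lost too in a fit of the 6 Starv libraries alone (edgeR adjusted p = 0.124), where 0 genes of all were called, and the log2 difference was -0.15 with the length and GC trend removed. Pik3r4 was next in size at -0.35 (edgeR adjusted p = 0.0831), with overlapping groups. Atg14 was separated by library, at 717, 749 and 805 against 847, 871 and 814, with a log2 difference of -0.16 (95% CI -0.40 to 0.084, edgeR adjusted p = 0.307). Libraries of 34.9% of all genes were separated in this comparison, and of 2 of the 10, Ulk2 and Atg14, both lower in shBruce. The remaining 7 genes had log2 differences between -0.24 (Uvrag) and 0.19 (Becn1). Over the 19 alternatives Becn1 ranged from 0.10 to 0.55 and was called under 1.

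The calls between the lines in Starv moved most when shBruce Starv 3 was left out. Without shBruce Starv 3, 6 of the 10 genes were called, with Ulk1 (-0.34), Ulk2 (-0.73), Pik3c3 (-0.34), Pik3r4 (-0.50) and Uvrag (-0.44) lower and Becn1 (0.30) higher in shBruce, beside 46.7% of all genes (5735) in the same fit. Without shBruce Starv 1 none of the 10 was called, beside 4.68% of all genes (573).

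Whether the response to starvation differed between the lines was tested as the interaction of line and medium. For the 10 genes it ranged from -0.41 (Ulk2) to 0.35 (Rb1cc1), and 0 were called, as were 0% of all genes in edgeR. No gene was called by DESeq2 or limma-voom either, and 474 genes, 0 of the 10 among them, had an unadjusted p under 0.05 in edgeR. For Atg14 the interaction was 0.034 (95% CI -0.31 to 0.38) and for Atg13 -0.076 (95% CI -0.56 to 0.41). The intervals of Ulk1 (-0.68 to 0.33) and Rb1cc1 (-0.26 to 0.96) reach past the size of the shBruce responses of these genes.

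**Figure D3:**
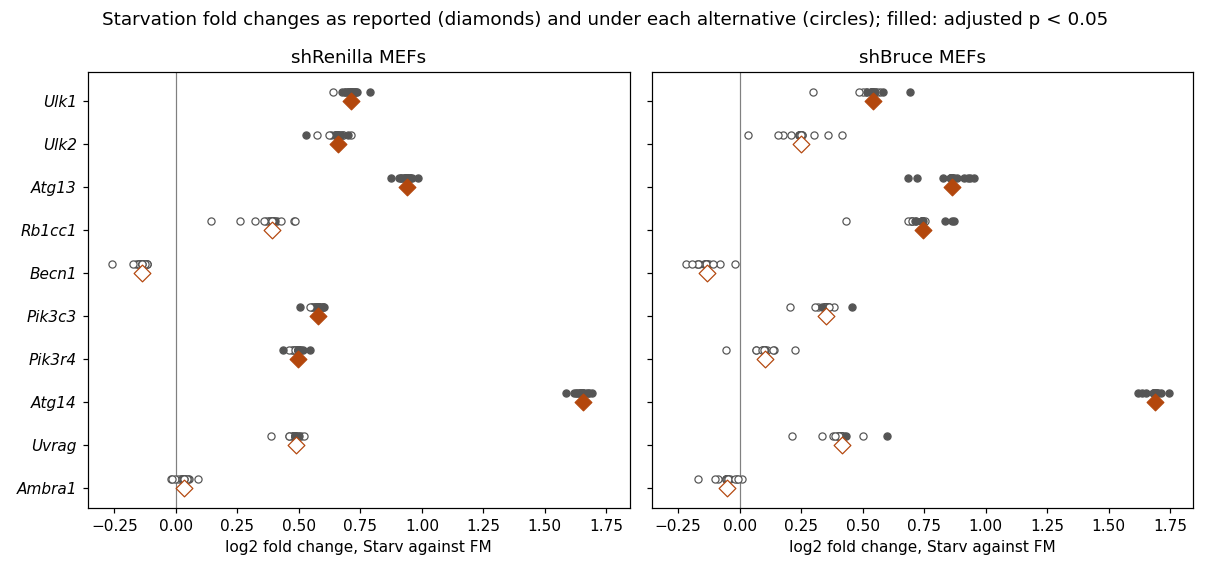
Log2 fold changes of Starv against FM (horizontal axes) for the 10 genes in shRenilla (left) and shBruce MEFs (right), as reported (diamonds) and under each of 19 alternatives (circles). Filled symbols passed the test. Atg13 and Atg14 are filled throughout in both lines. In shRenilla MEFs Ulk1, Ulk2, Rb1cc1, Pik3c3, Pik3r4 and Uvrag change between filled and open, and in shBruce MEFs Ulk1, Rb1cc1, Pik3c3 and Uvrag do.

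Around these 10 genes, 49 others of the pathway were listed by role, of which 47 are in the table and were tested. In shRenilla MEFs 4 of the 47 were higher and 3 lower in Starv, 14.9% beside the 17% of all genes. In shBruce MEFs 5 were higher and 4 lower, 19.1% beside 23%. The share called was thus near that of all genes in both lines.

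Downstream of the PI3K, 3 of 8 genes for PI3P readers and membrane supply were called higher in both lines, and none lower, in this edgeR test. Of all genes, 9.69% and 12.4% were called higher. The median log2 fold change of the 8 genes was 0.25 in shRenilla and -0.015 in shBruce MEFs. With the length and GC trend removed, Atg9a was called lower in shBruce MEFs, beside 32.9% of all genes called. Without shBruce Starv 3, Atg2b was called lower there, beside 32.7% of all genes called. Zfyve1, which encodes the PI3P-binding protein DFCP1 that marks sites of autophagosome formation, had a log2 fold change of 1.01 in shRenilla and 0.70 in shBruce MEFs (edgeR adjusted p = 0.00660 and 0.0373). The shBruce call of Zfyve1 was lost with limma-voom and in a fit of the shBruce libraries alone. It was also lost when any library but shBruce Starv 1 was left out. Wdr45, for the PI3P reader WIPI4, had log2 fold changes of 0.86 and 0.78 (edgeR adjusted p = 0.00148 and 0.00221). Wipi1, another PI3P reader of the same family, had 0.67 in each line (edgeR adjusted p = 0.00346 and 0.00280). Among 10 genes of PI3P turnover, Mtmr3, a PI3P phosphatase gene, rose in shRenilla MEFs (0.71, edgeR adjusted p = 0.0205). This call was lost without shRenilla FM 1, 2 or 3 or shRenilla Starv 1 or 2. In shBruce MEFs Mtmr3 was at 0.53 and missed the threshold (edgeR adjusted p = 0.0604). Its interaction of -0.18 was not called (edgeR adjusted p = 0.860), so a difference between the lines is not shown.

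Of 10 genes for PI3K accessory subunits and Beclin 1 binding regulators, 2 fell in shRenilla and 3 in shBruce MEFs, and none rose, beside the 7.27% and 10.6% of all genes called lower. Bcl2l1, which encodes BCL-XL, an inhibitor of cell death that binds Beclin 1, went from a mean of 1457 ± 66.6 to 696 ± 40.8 normalized counts in shRenilla MEFs (SD, n = 3; log2 fold change -1.06, edgeR adjusted p = 0.000483). In shBruce MEFs its log2 fold change was -0.92 (edgeR adjusted p = 0.00113). Vmp1, for an endoplasmic reticulum protein that moves lipids, had -0.71 and -0.68 (edgeR adjusted p = 0.00206 and 0.00210). Among 9 genes for ubiquitin ligases and deubiquitinases of the complexes, Usp10, a deubiquitinase gene whose product acts on Beclin 1, fell in both lines (-0.48 and -0.62, edgeR adjusted p = 0.00556 and 0.000870). Rnf216 of the same list went the other way, at 0.29 in shRenilla (edgeR adjusted p = 0.103) and 0.37 in shBruce MEFs (edgeR adjusted p = 0.0327). Its shBruce call was lost without shBruce FM 1, 2 or 3, among other alternatives. In a fit of the 6 shBruce libraries alone, 3 of the 47 were called, Bcl2l1, Usp10 and Wdr45, beside 8.11% of all genes. In a fit of the 6 shRenilla libraries alone, 12 of the 47 were called higher and 5 lower, beside 41.9% of all genes.

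Upstream, 0 of the 7 genes for AMPK subunits and their activating kinase Stk11 were called in either line. Of all genes, 17% and 23% were called. In this edgeR test the log2 fold changes of the 7 genes lay between -0.48 and 0.11. With the length and GC trend removed, Prkaa1 was called in shRenilla and Prkaa1, Prkaa2 and Prkab2 in shBruce MEFs. In that fit 25.3% and 32.9% of all genes were called. Without shBruce Starv 3, Prkaa1 and Prkab2 were called in shBruce MEFs, beside 32.7% of all genes. The only other ULK complex gene, Atg101, which encodes the partner of ATG13, had a log2 fold change of 0.077 in shRenilla (edgeR adjusted p = 0.812) and 0.63 in shBruce MEFs (edgeR adjusted p = 0.0285). This shBruce call was lost in a fit of the shBruce libraries alone and with the replicate number as a block. It was lost too when any shBruce library except shBruce Starv 3 was left out. The interaction of 0.55 for Atg101 was not called (edgeR adjusted p = 0.806). Ulk3 and Ulk4 were called in neither line.

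Between the lines, 0 of the 47 genes were called in FM, and in Starv 3 were higher and 10 lower in shBruce MEFs, 27.7% beside the 23.9% of all genes. Atg101 (0.90), Stk11 (0.39) and Prkag1 (0.34) were the higher ones. Prkaa2 (-1.03), which encodes a catalytic AMPK subunit, Pikfyve (-0.85), for the kinase that converts PI3P, and Tab3 (-0.71), for a Beclin 1 binding protein, had the largest values among the lower ones. These calls depended on the fit, as did those over all genes. With the 6 Starv libraries alone, 0 of the 46 of these genes then tested were called, beside 0% of all genes. With the length and GC trend removed 2 were called, Tmem41b higher and Trim32 lower, beside 5.53% of all genes. Without shRenilla Starv 1, shRenilla Starv 2 or shBruce Starv 2, 0 of the 47 were called, beside 0%, 0% and 0.122% of all genes. Without shBruce Starv 1, 1 was called higher and 3 lower, beside 4.68% of all genes. Without shBruce Starv 3, 5 were called higher and 20 lower, beside 46.7% of all genes. Of the 47, 0 were called in the interaction.

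**Figure D4:**
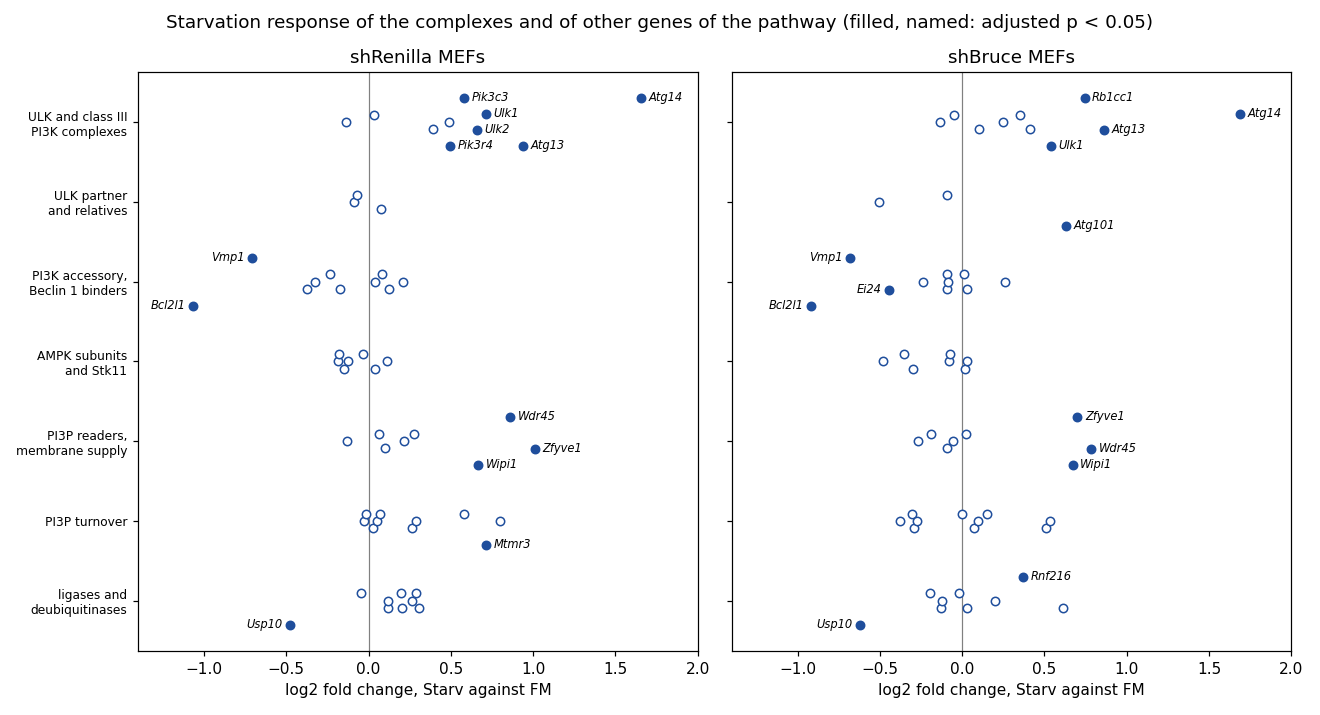
Log2 fold change of Starv against FM (horizontal axes) for the 10 genes (top row) and for 47 other genes of the pathway grouped by role (rows), in shRenilla (left) and shBruce MEFs (right). Filled, named points passed the test over all genes. The top row holds 6 and 4 filled points, all to the right of 0, and the PI3P readers Zfyve1, Wdr45 and Wipi1 are filled on the right side in both lines, with Bcl2l1, Vmp1 and Usp10 filled on the left side.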

How the data were processed

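MEFs expressing shRenilla or shBruce were analysed in FM and Starv, with 3 libraries in each of the 4 conditions, grouped by the labels. Per the study's methods, the authors extracted total RNA, enriched poly(A) RNA and sequenced single-end reads, which per the submitters' notes were mapped to mm10 with STAR 2.4.0d and counted with HTSeq 0.5.4p3, and the deposited values are raw read counts per gene. The annotation, strand setting and overlap mode of the counting are not given in the sources used here. In the table, 27 symbols had been turned into dates (0.296% of counts) and 2 are repeated, and 0 columns were unused.

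Counts were fitted in edgeR 4.0.16 (R 4.3.3) with TMM normalization, filterByExpr, a mean per condition over all 12 libraries and the two-sided quasi-likelihood test, with Benjamini-Hochberg adjustment over 12154 genes at 0.05. Normalized counts are counts divided by relative effective library size, and confidence intervals are at 95%. Replicates varied beyond counting error (chi-square per degree of freedom 2.21 to 95.7), so errors are SDs or standard errors of the fit. Exact permutation tests used normalized counts. Positions and transcript lengths came from GENCODE M21 (GRCm38), promoters from RefSeq (GRCm38.p6). The fits were run on counts simulated with the same spread in every library, unlike these data, and were checked for starvation in shRenilla MEFs only. Python 3.11.15, pandas 2.3.3, scipy 1.17.1 and matplotlib 3.10.9 were also used.

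The members, the pathway lists and the marker lists were chosen with earlier results of these data known. All members are named throughout, with Birc6 as the check of the knockdown, up to 3 higher and 3 lower called pathway genes per comparison, and the 3 genes most alike to each member called under starvation. The starvation values of Atg101, Ulk3 and Ulk4 fall outside that rule and were chosen after they were seen. The same holds for the names Rnf216 and Ei24 (both called in shBruce MEFs), Cntd1, Trim32, Tmem41b, Prkaa1, Prkab2, Atg9a and Atg2b. The alternatives replaced TMM by the size factors of DESeq2, the test by DESeq2 1.42.0 (Wald) or by limma 3.58.1 with voom, which the authors used, or used no filter on low counts, only the libraries compared, the replicate number as a block and each library left out. Removal of the length and GC trend (spline with 4 degrees of freedom, 12058 genes with a length) was added after the data had been seen.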

Additional observations from a re-analysis of the deposited data

How the results depend on the processing

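The 10 genes counted as called in the reported fit were 6 and 4 under starvation in shRenilla and shBruce MEFs, 0 and 1 between the lines in FM and in Starv, and 0 for the interaction. With only the libraries compared, the counts were 8 and 2 under starvation, 1 in FM (Rb1cc1) and 0 in Starv. In that fit 5013, 956, 597 and 0 of all genes were called, beside 2061, 2790, 0 and 2907. With the length and GC trend removed, added after the data had been seen, 6 were called in shBruce MEFs under starvation (Pik3c3 and Uvrag gained), and 0 between the lines in Starv, beside 32.9% and 5.53% of all genes (3998 and 672). DESeq2's size factors, its Wald test, limma-voom and no filter kept each count within 1.5 times, and of all genes between the lines in FM, DESeq2 called 71, the fit with no filter 7 and the fit without the length and GC trend 2. With 1 library left out, the counts ranged from 3 to 8 in shRenilla, from 2 to 5 in shBruce, from 0 to 6 between the lines in Starv, and stayed at 0 in FM and for the interaction. Over all genes the counts ranged from 1149 to 3212, from 1855 to 4009 and from 0 to 5735, from 0 to 32 in FM, and stayed at 0 for the interaction. The count of 3 came without shRenilla FM 2 or shRenilla Starv 2, and the count of 2 without shBruce FM 2 or 3. The cause of these changes was not tested. A comparison left with 2 libraries in a condition borrows its spread from the others.

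The labels do not say whether libraries with the same replicate number were handled together. Of 18 pairs with the same number, 5 correlated above 0.1 in their deviations from the condition means (range -0.456 to 0.347). The median was -0.020 for these pairs and -0.0097 for the other pairs. With 3 libraries per condition, such correlations cannot settle whether libraries were paired. With the replicate block, 6, 4, 0, 1 and 0 of the 10 genes were called, as in the reported fit, and 1932 of all genes between the lines in Starv. The block turned the sign for Atg13 between the lines in Starv (-0.013) and for the interaction of Becn1 (-0.0011).

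Signs turned only for values that were not called, and mostly near 0. Between the lines in Starv, Atg13 was -0.0025 with limma-voom and -0.022 without the filter, and the interaction of Becn1 was -0.0072 and -0.0079. With the length and GC trend removed, Ambra1 was -0.015 under starvation in shRenilla, Ulk2 0.13 and Ambra1 0.029 between the lines in FM, Rb1cc1 0.45, Atg14 0.0088, Uvrag 0.022 and Ambra1 0.036 in Starv, and the interaction 0.041 for Uvrag and 0.0073 for Ambra1. With 1 library left out, Ambra1 ranged from -0.021 to 0.090 under starvation in shRenilla, from -0.17 to 0.011 in shBruce and from -0.065 to 0.027 between the lines in FM. Pik3r4 ranged from -0.055 to 0.22 under starvation in shBruce, and Pik3c3 from -0.00086 to 0.076 between the lines in FM. In Starv, Ulk1 ranged from -0.34 to 0.057 and Atg13 from -0.17 to 0.094. The interaction ranged from -0.25 to 0.00010 for Atg13, -0.096 to 0.12 for Becn1, -0.031 to 0.093 for Atg14 and -0.28 to 0.098 for Uvrag. Of the values for single genes under the alternatives, 847 kept their sign and their side of the threshold, 37 lost and 17 gained a call, and 39 changed sign.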

Other observations

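Across the 12 libraries, the 10 genes did not all move alike. On log2 CPM, Atg13 followed Ulk1 (Pearson's r = 0.93), Atg14 (0.92) and Pik3c3 (0.92), and Pik3c3 followed Uvrag (0.91) and Pik3r4 (0.90). Becn1 was negatively related to each of the other 9 genes, from -0.46 with Rb1cc1 to -0.86 with Uvrag, and Ambra1 had 0.098 with its neighbour Atg13 and 0.021 with Atg14. These values describe 12 libraries of 4 conditions that share their medium, line and depth.

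The genes most alike to each called member over the same 12 libraries were Fbxo32 (r = 0.995), Gadd45a (0.991) and Otub2 (0.990) for Atg14. Fbxo32 encodes an F-box protein of a ubiquitin ligase known from muscle atrophy, and Gadd45a a growth arrest protein induced by stress. For Atg13 they were Zhx2 (0.992), Zfyve27 (0.985) and Gm16515 (0.983), and for Ulk1 Cdr2l (0.976), Ctc1 (0.971) and Unk (0.968). Ulk2 was most like Aldh3a2 (0.984), Rhbdd1 (0.981) and Atl1 (0.976), and Pik3c3 most like Pask (0.986), Bbs10 (0.983) and Bcl6 (0.978). Pik3r4 was closest to Mtbp (0.971), Supt7l (0.963) and Dnmbp (0.957), and Rb1cc1 to Ccdc15 (0.973), Cpeb3 (0.958) and Lhx1 (0.956). None of the 10 genes was among the 3 most alike to these 7, and the list was not made for Becn1, Uvrag and Ambra1.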
